A study of Homo sapiens with 3 samples.

Results

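The MYC, MAX and MXD network is a family of transcription factors whose members pair through a basic helix-loop-helix leucine zipper and bind the DNA letters CACGTG, the E-box. MYC, MYCN and MYCL pair with MAX and activate genes of growth and ribosome production. MXD1, MXD3, MXD4, MXI1 and MNT also pair with MAX and bring the SIN3 corepressor to the same sites, and MGA, a large MAX partner, belongs to a Polycomb repressor complex. MYCN is known for its amplification in some alveolar rhabdomyosarcoma (ARMS) tumors and as a reported target of PAX3-FOXO1. All 10 genes were chosen by name, as the probe sets that the array's annotation pairs with their symbols, and 32 of 54675 probe sets were found, with at least 1 for each gene. Counted as genes, they stand beside 19775 genes that the annotation names alone on a probe set. All 3 probe sets of MXD4 were also paired with MIR4800, a microRNA that lies inside MXD4, so their values cannot be given to MXD4 alone, and the other 9 genes had probe sets named with 1 gene.

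The RNA came from Rh-30, an established ARMS cell line that carries PAX3-FOXO1, in which 5 nM of siRNA against PAX3-FOXO1 (siPF), against B7-H3, the product of CD276 (siB7-H3), or of control siRNA (siCont) had been transfected with a lipid reagent. Cells were harvested after 24 h, and each condition was read on a single Affymetrix U133 Plus 2.0 expression array. Replicates were lacking, so no error and no test can be given between conditions, each difference below lies between 2 arrays of 1 cell line, and both knockdowns were set against the same siCont array. The study examined how PAX3-FOXO1 and B7-H3 are linked in ARMS and what B7-H3 does there. In bulk RNA, fewer cells that express a gene and less RNA per cell cannot be told apart.

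The network's own binding site was looked for in the 250 bases before the annotated gene starts (RefSeq, GRCh38.p14), for which 14 starts of 9 members were found. CACGTG, which reads the same on both strands, was in 2 of these 14 stretches, against 6.34% of all 35116 stretches in the table. One lay 238 bases before the start of MXD4 and one 193 bases before the start of MNT, shown here with their flanks, the match in capitals.
MXD4 (chr4:2262322-2262359, minus strand): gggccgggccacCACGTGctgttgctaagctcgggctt
MNT (chr17:2401228-2401273, minus strand): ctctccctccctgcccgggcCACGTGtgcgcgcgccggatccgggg
The stretch before MYCL is shown because MYCL was the member past 2-fold (below). It holds no CACGTG and 1 match to the looser pattern CANNTG, 210 bases before the start and in capitals, a pattern that 61.8% of all stretches hold at least once and that also covers the sites of muscle factors such as MyoD.
MYCL (chr1:39901918-39902167, minus strand): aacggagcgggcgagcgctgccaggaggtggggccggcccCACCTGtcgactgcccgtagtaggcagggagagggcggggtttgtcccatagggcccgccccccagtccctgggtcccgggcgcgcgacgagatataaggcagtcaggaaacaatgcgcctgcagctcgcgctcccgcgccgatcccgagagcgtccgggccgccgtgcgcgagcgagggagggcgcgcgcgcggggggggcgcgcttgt
A match of letters is a description of the sequence, and binding was not measured here.

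The values are linear intensities, and their mean, trimmed by 2% at either end, was 500.1 for all 3 arrays. Each gene was read from the probe set that was brightest on average over the arrays, and past 2-fold means a log2 difference of 1 or more in size. Under a level rule, the brighter of the arrays compared also had to be at or above the 60th percentile of that array, which was 137 for siPF, 134 for siB7-H3 and 132 for siCont. CD276 was at 1381 in siPF, 362 in siB7-H3 and 1486 in siCont. Its log2 difference in siPF was -0.11, where the SD over genes of this level was 0.34. A dimmer CD276 probe set had 349 in siPF, 11.4 in siB7-H3 and 460 in siCont, and another was under the limit on all arrays. FOXO1, which supplies part of the fusion transcript, was at 249 in siPF, 650.0 in siB7-H3 and 678 in siCont. PAX3, the other partner, was at 329 in siPF, 398 in siB7-H3 and 381 in siCont, and whether these probe sets read the fusion transcript was not determined. Of 13 measured rhabdomyosarcoma and muscle markers, 12 reached the level limit in siPF, 13 in siB7-H3 and 12 in siCont, against 1, 2 and 2 of 16 markers of other cell types, among them PECAM1, an endothelial gene, at 621 in siPF, 910.1 in siB7-H3 and 699 in siCont. The muscle markers went both ways in siPF, where 8 of 12 under the level rule were above siCont and 4 below, and 12 of 13 were above it in siB7-H3. MYOG, the gene of myogenin, was past 2-fold higher, at 3386 in siPF, 1269 in siB7-H3 and 605 in siCont, as was TNNI1, a troponin gene, in siPF. The earlier-acting MYF5 and MYOD1 had log2 differences of -0.96 and -0.40 in siPF, and the part of muscle differentiation in the values below was not tested.

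MYCL was the member past 2-fold in siPF, where it was higher, and no member was past 2-fold lower. All 10 representative probe sets passed the level rule through every array. Among the 10500 genes under this rule, 1.38% were at least 2-fold higher and 1.12% at least 2-fold lower in siPF. In siB7-H3 no member was past 2-fold either way, where 0.792% of 10481 genes were higher and 0.83% lower. The median log2 difference of the members was 0.19 in siPF and 0.16 in siB7-H3, against 0.017 and 0.0045 over all 19775 genes. The members above siCont were 9 of 10 in siPF and 6 of 10 in siB7-H3, against 52.5% and 52.8% of all genes under the level rule. Between the knockdown arrays, siPF minus siB7-H3, MYCL was again the member past 2-fold, higher in siPF, where 0.899% of 10451 genes were higher and 0.928% lower.

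**Figure D1:**
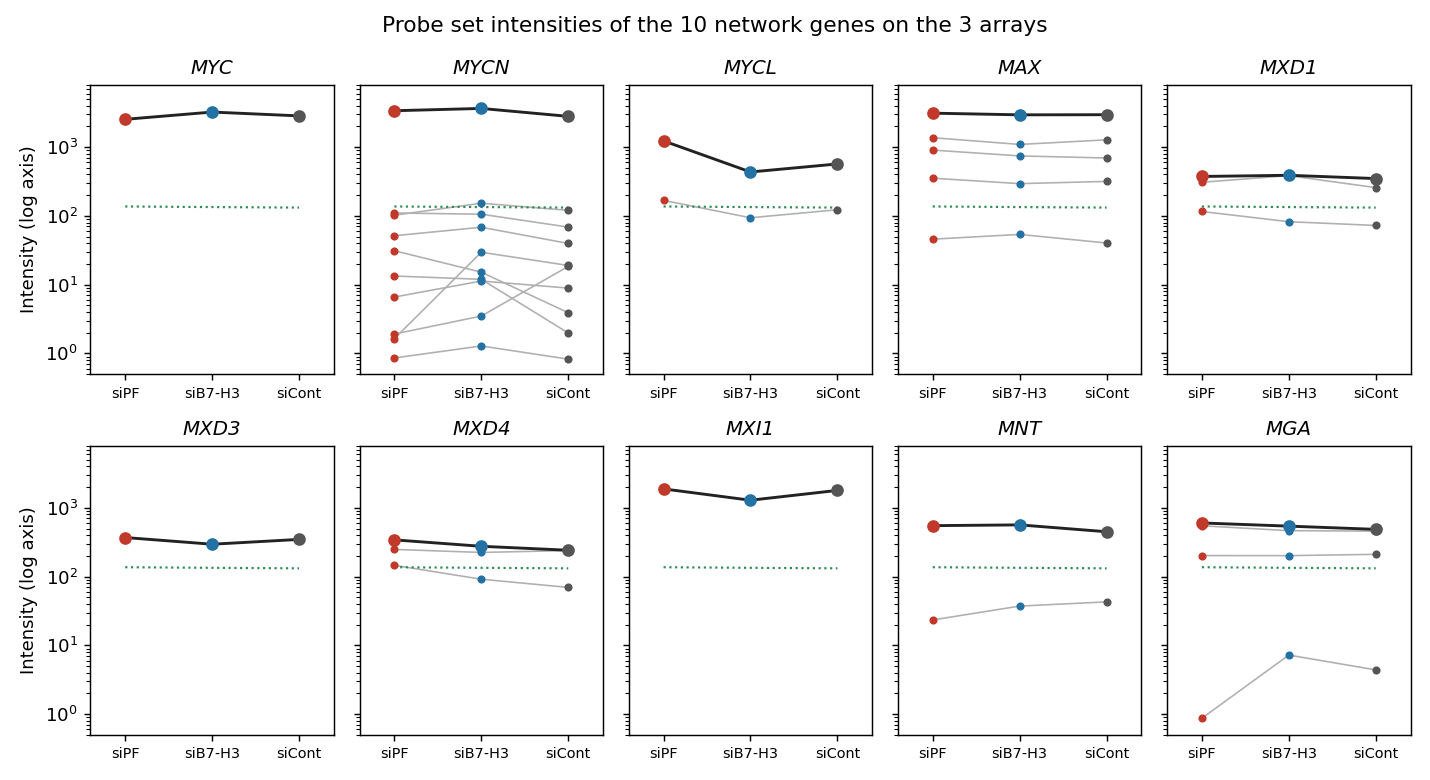
Intensity (log axis) of every probe set of the 10 network genes on the siPF (red), siB7-H3 (blue) and siCont (grey) arrays, 1 line per probe set. The thick line is the probe set that represents the gene, and the green dotted line is the level limit of 137, 134 and 132. MYCL stands highest in siPF, at 1228, MXI1 stands lowest in siB7-H3, at 1289, and most MYCN probe sets lie under the limit.

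MYCL, first found in lung cancer and usually held to be the weakest of the MYC proteins in transformation, differed most between the arrays. Its intensity at probe set 214058_at was 1228 in siPF, 434 in siB7-H3 and 568 in siCont. The siPF array was the high one and both other arrays lay well under it. This gave log2 differences of 1.11 (2.16-fold) in siPF and -0.39 (0.765-fold) in siB7-H3, and 1.501 (2.83-fold) between siPF and siB7-H3. A dimmer probe set of MYCL, 215491_at, had 168 in siPF, 93.8 in siB7-H3 and 123 in siCont. The order of the 3 arrays was the same at both probe sets, and the dimmer one gave log2 differences of 0.45 for siPF and -0.39 for siB7-H3. Its difference in siPF was short of 2-fold, and it reached the level limit on 1 array. With the median over both probe sets MYCL had a log2 difference of 0.78 in siPF, under the threshold, and 1.17 between siPF and siB7-H3. Across the tenth of genes with the level of MYCL, intensities of 420.2 to 840.1, the log2 difference had an SD over 1977 genes of 0.38 in siPF and 0.33 in siB7-H3.

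MYCN, the family member most associated with ARMS and neuroblastoma, had an intensity of 3373 in siPF, 3642 in siB7-H3 and 2794 in siCont at its brightest probe set, 209757_s_at. Both knockdown arrays were above siCont, by a log2 difference of 0.27 in siPF and 0.38 in siB7-H3. Across the tenth of genes with this level the SD was 0.27 in siPF and 0.24 in siB7-H3. The next probe set of MYCN, 209756_s_at, had 102 in siPF, 152 in siB7-H3 and 120.2 in siCont, below siCont in siPF and above it in siB7-H3. It reached the level limit on the siB7-H3 array alone, where it was highest. The remaining 8 MYCN probe sets were under the level limit on all arrays and spread widely, with log2 differences down to -3.53 and up to 2.99 in siPF and down to -2.40 and up to 2.59 in siB7-H3. A dim MYCN probe set, 234298_at, had 31.1 in siPF, 15.2 in siB7-H3 and 3.90 in siCont, whereas 234815_at had 1.91 in siPF, 3.49 in siB7-H3 and 18.4 in siCont. These went opposite ways. Over all 10 MYCN probe sets, 6 were above siCont in siPF and 9 in siB7-H3, but 8 of the 10 were dim. Of all dim probe sets named with 1 gene, 50.6% and 48.9% were above siCont. Of the other dim MYCN probe sets, 211377_x_at had 110.1 in siPF, 106 in siB7-H3 and 68.6 in siCont. Probe set 242026_at had 51.4 in siPF, 68.2 in siB7-H3 and 39.7 in siCont, and both were above siCont on both knockdown arrays. The last 4, 234169_at, 234376_at, 234253_at and 234872_at, lay between 0.826 and 29.6 on all arrays. The antisense gene MYCNOS, which overlaps MYCN, was dim, with 9.10 in siPF, 8.40 in siB7-H3 and 18.2 in siCont.

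MYC itself, the broadly used growth factor-responsive member, was read by 1 probe set, 202431_s_at. Its intensity was 2531 in siPF, 3227 in siB7-H3 and 2839 in siCont. The siCont array lay between the knockdown arrays, with log2 differences of -0.17 in siPF and 0.18 in siB7-H3. The SD over genes of this level was 0.31 and 0.28, larger than either difference. MYC was the member below siCont in siPF, and the difference between siPF and siB7-H3 was -0.35.

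MAX, the shared partner without which neither the MYC nor the MXD proteins bind the E-box as dimers, varied least at its brightest probe set. At 209332_s_at it had 3109 in siPF, 2940 in siB7-H3 and 2952 in siCont, log2 differences of 0.075 and -0.0060. A second bright probe set, 209331_s_at, had 1368 in siPF, 1091 in siB7-H3 and 1273 in siCont. Over the 4 MAX probe sets above the level limit the log2 differences ran from 0.075 to 0.38 in siPF, all above siCont, and from -0.22 to 0.10 in siB7-H3, where 3 of 4 were below it. All 4 were higher in siPF than in siB7-H3, by 0.081 to 0.33 on the log2 scale. The dim MAX probe set, 214108_at, had 45.8 in siPF, 53.7 in siB7-H3 and 40.3 in siCont, and was highest in siB7-H3 instead.

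Among the repressor partners, MXI1 had the lowest log2 difference in siB7-H3 of the 10 representative probe sets. MXI1 was read by 1 probe set, 202364_at, with 1883 in siPF, 1289 in siB7-H3 and 1791 in siCont. The siB7-H3 array was the low one and the other arrays were close to each other, with log2 differences of 0.072 in siPF and -0.47 (0.72-fold) in siB7-H3, and 0.55 between siPF and siB7-H3. The SD over genes of this level was 0.28 in siB7-H3, and the difference was short of 2-fold. MXD3, an MXD protein linked to proliferating cells, had 370 in siPF, 295 in siB7-H3 and 347 in siCont at its only probe set. Its siB7-H3 array was likewise the lowest, with log2 differences of 0.091 in siPF and -0.23 in siB7-H3.

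MXD1, which rises as many cell types differentiate, was above siCont on both knockdown arrays at all 3 of its probe sets. It had 374 in siPF, 389 in siB7-H3 and 348 in siCont at the brightest, and 308 in siPF, 384 in siB7-H3 and 257 in siCont at the next. A dim probe set had 116 in siPF, 82.1 in siB7-H3 and 72.5 in siCont. The log2 differences lay between 0.10 and 0.67 in siPF and between 0.16 and 0.58 in siB7-H3, so no probe set was past 2-fold, and which knockdown array was higher varied between probe sets.

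The probe sets paired with both MXD4 and MIR4800 differed among themselves. The brightest, 212347_x_at, had 342 in siPF, 276 in siB7-H3 and 242 in siCont, a log2 difference of 0.50 in siPF and 0.19 in siB7-H3. The next, 210778_s_at, had 248 in siPF, 224 in siB7-H3 and 239 in siCont, and all arrays were within a log2 difference of 0.15. The dimmest, 212346_s_at, had 146 in siPF, 91.6 in siB7-H3 and 69.6 in siCont, which was 2.09-fold higher in siPF and passed the level rule there through its siPF value. All 3 were highest in siPF.

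MNT, a MAX partner that is present in most cells and counters MYC, had 550.2 in siPF, 565 in siB7-H3 and 449 in siCont at its brighter probe set. Both knockdown arrays were above siCont, with log2 differences of 0.29 and 0.33. Its dim probe set went the other way, with 23.4 in siPF, 37.3 in siB7-H3 and 42.9 in siCont, all far under the level limit. MGA had 602 in siPF, 541 in siB7-H3 and 486 in siCont at its brightest probe set and 548 in siPF, 465 in siB7-H3 and 458 in siCont at the next. Both were highest in siPF, with log2 differences of 0.31 and 0.26 there and 0.16 and 0.023 in siB7-H3. Another MGA probe set had 202 in siPF, 202 in siB7-H3 and 211 in siCont, and the dimmest 0.873 in siPF, 7.23 in siB7-H3 and 4.40 in siCont.

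**Figure D2:**
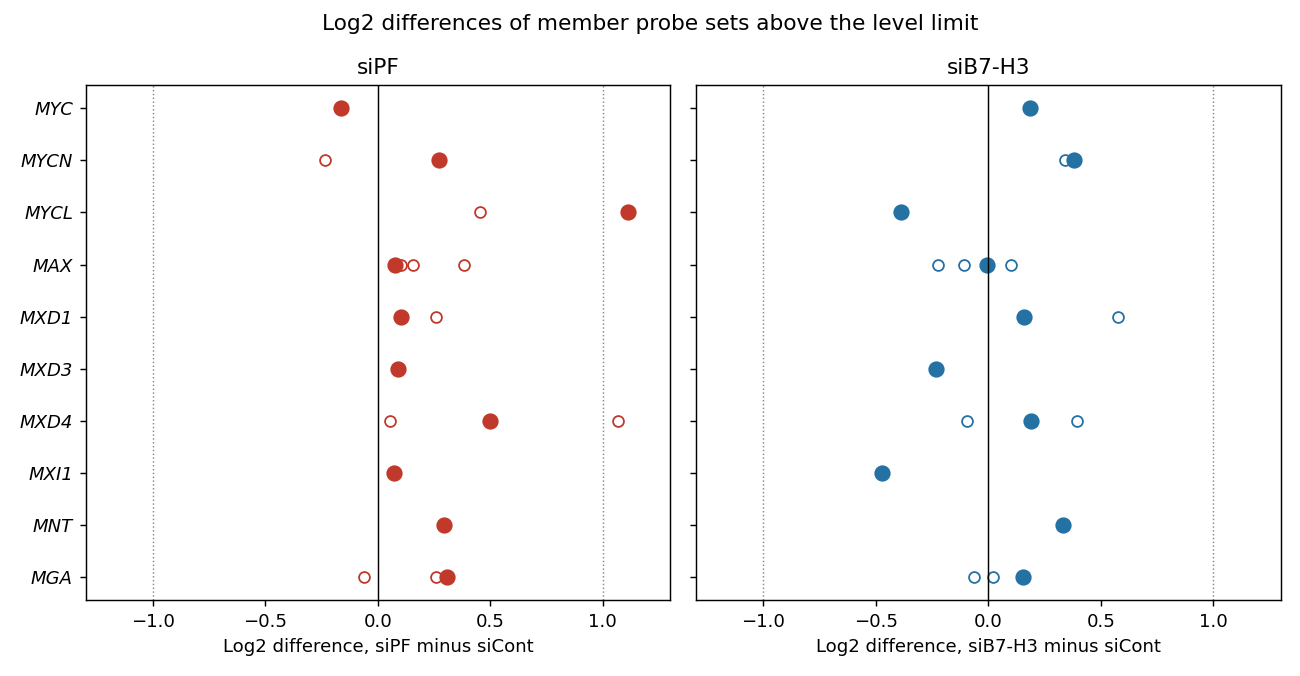
Log2 difference from siCont of the 20 member probe sets that reached the level limit on at least 1 array, in siPF (left, red) and siB7-H3 (right, blue). Filled points are the representative probe sets and open points the others, and dotted lines mark 2-fold. In siPF, 17 of 20 points lie above siCont and MYCL and a probe set of MXD4 pass 2-fold, whereas in siB7-H3, 11 of 20 lie above it, against 52.1% and 51.1% of all probe sets under the same limit, and the points of MYCL, both at -0.39, overlap.

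Dim probe sets carried most of the large differences. Over all 32 member probe sets, 7 were past 2-fold in siPF (4 higher, 3 lower) and 3 in siB7-H3 (2 higher, 1 lower). Among the 41091 probe sets named with 1 gene, 21% were past 2-fold in siPF and 20.4% in siB7-H3. Of the 12 member probe sets under the level limit on all arrays, 5 were past 2-fold in siPF and 3 in siB7-H3, and of the 20 others, 2 and none. Over all probe sets named with 1 gene, 38.4% of the dim ones were past 2-fold in siPF and 37.7% in siB7-H3, against 2.78% and 2.13% of the others. Some of the 20 met the limit on 1 array alone, the array where they were high. These were MYCL 215491_at and MXD4 212346_s_at through siPF and MYCN 209756_s_at through siB7-H3. Of the 17 at the limit on all arrays, 15 were above siCont in siPF and 9 in siB7-H3, against 52.3% and 51.5% of all such probe sets. The largest difference among the 20 others was 1.11 in siPF, at MYCL, and 0.58 in siB7-H3, at MXD1.

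**Figure D3:**
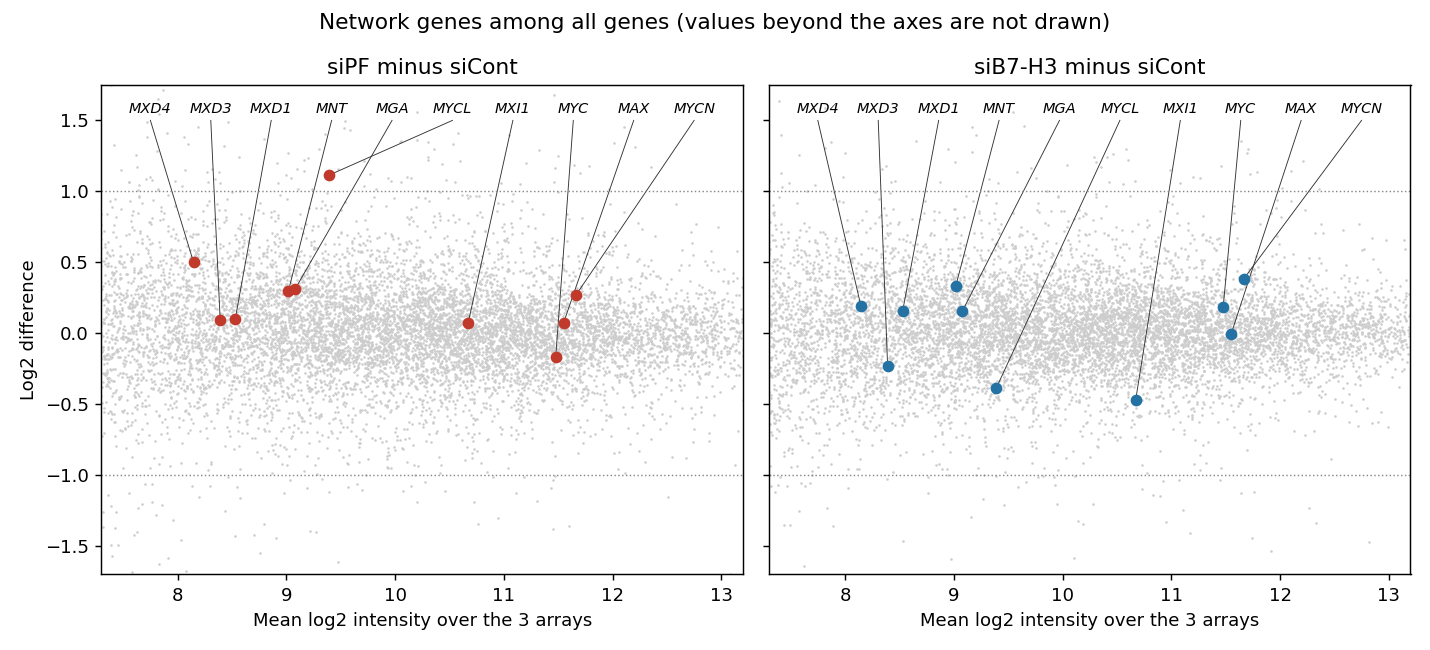
Log2 difference from siCont against the mean log2 intensity over the 3 arrays, for siPF (left) and siB7-H3 (right), with the genes inside the drawn axes as grey points and the 10 members coloured and named. Dotted lines mark 2-fold. MYCL lies above the 2-fold line in siPF, and in siB7-H3 all members lie between the lines.

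Genes reported to be driven by MYC proteins were close to siCont as a group. Of 71 measured activated targets, 70 passed the level rule, 35 above and 35 below siCont in siPF and 45 above and 25 below in siB7-H3. The share above siCont was 50% and 64.3%, against 52.5% and 52.8% of all genes under the rule. The median log2 difference of those 70 was 0.0064 in siPF and 0.081 in siB7-H3, against 0.018 and 0.017 over all genes under the rule. NIP7, a factor of ribosome assembly, was past 2-fold lower in siPF, with 773 in siPF, 1162 in siB7-H3 and 1629 in siCont. SHMT1, an enzyme of one-carbon metabolism, was past 2-fold lower in siB7-H3, with 221 in siPF, 115 in siB7-H3 and 273 in siCont, and passed the level rule there through its siCont value. No target under the rule was past 2-fold higher. These counts are near the shares over all genes under the rule. Those were 1.38% higher and 1.12% lower in siPF, and 0.792% and 0.83% in siB7-H3.

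Other targets gave smaller differences, and ODC1 and NCL were picked after their values were seen. ODC1, the first enzyme of polyamine synthesis, had 26638 in siPF, 30456 in siB7-H3 and 29101 in siCont. NCL, the gene of nucleolin, had 16926 in siPF, 17043 in siB7-H3 and 16581 in siCont, with knockdown arrays within a log2 difference of 0.040 of siCont. POLR1A, the largest subunit of RNA polymerase I, and UBTF, its activator, had the largest positive differences of the list in siPF and in siB7-H3, under the level rule. POLR1A had 1220.4 in siPF, 1259 in siB7-H3 and 813 in siCont, and UBTF 831 in siPF, 868 in siB7-H3 and 573 in siCont. Both were above siCont on both knockdown arrays and short of 2-fold. POLR1B, of the same polymerase, had log2 differences of -0.30 in siPF and 0.15 in siB7-H3. RRN3, also in the list, had -0.11 and -0.38. After NIP7, the lowest of the list in siPF were DDX21 at -0.57 and SNRPD1 at -0.53.

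Of 26 measured genes reported to be repressed by MYC, 20 passed the level rule, 10 above and 10 below siCont in siPF and 6 above and 14 below in siB7-H3. The shares above siCont, 50% in siPF and 30% in siB7-H3, stand beside 52.5% and 52.8% of all genes under the rule. The medians of these 20 were -0.00047 in siPF and -0.17 in siB7-H3, against 0.018 and 0.017 over all genes under the rule. GADD45G, a stress-response gene, was past 2-fold higher in siPF, as 1.38% of all genes under the rule were, with 601 in siPF, 282 in siB7-H3 and 241 in siCont. The cyclin-dependent kinase inhibitors, chosen after their values were seen, gave smaller differences. CDKN1A, the gene of p21, had 2163 in siPF, 1875 in siB7-H3 and 2161 in siCont, and CDKN1B, the gene of p27, 5183 in siPF, 4049.6 in siB7-H3 and 4963 in siCont. CDKN2B, the gene of p15, had 402 in siPF, 269 in siB7-H3 and 343 in siCont. For all 3 the siB7-H3 array was the lowest.

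Of 38 measured cofactors and regulators of the MYC proteins, all passed the level rule and none was past 2-fold in either comparison, which is near the share over all genes, 1.38% higher and 1.12% lower in siPF and 0.792% and 0.83% in siB7-H3. In siPF 22 were above and 16 below siCont, and in siB7-H3 19 were above and 19 below, with medians of 0.032 and 0.0011, against 52.5% and 52.8% above and medians of 0.018 and 0.017 over all genes under the rule. The corepressor scaffolds of the MXD proteins, SIN3A and SIN3B, had 952 and 396 in siPF, 1050.3 and 383 in siB7-H3 and 911 and 383 in siCont. The extremes of the list in siPF were KAT5, an acetyltransferase, at 961 in siPF, 629 in siB7-H3 and 483 in siCont, and SKP2, a ubiquitin ligase subunit, at 11624.5 in siPF, 19779 in siB7-H3 and 21339.7 in siCont. FBXW7, the ligase subunit that marks MYC and MYCN for breakdown, had 393 in siPF, 448 in siB7-H3 and 679 in siCont, below siCont on both arrays by log2 differences of -0.79 and -0.60. USP28, also in the list, had -0.59 and -0.27. The extremes in siB7-H3 were RUVBL2, at 0.87 there and 0.78 in siPF, and FBXW7. Protein was not measured on these arrays.

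**Figure D4:**
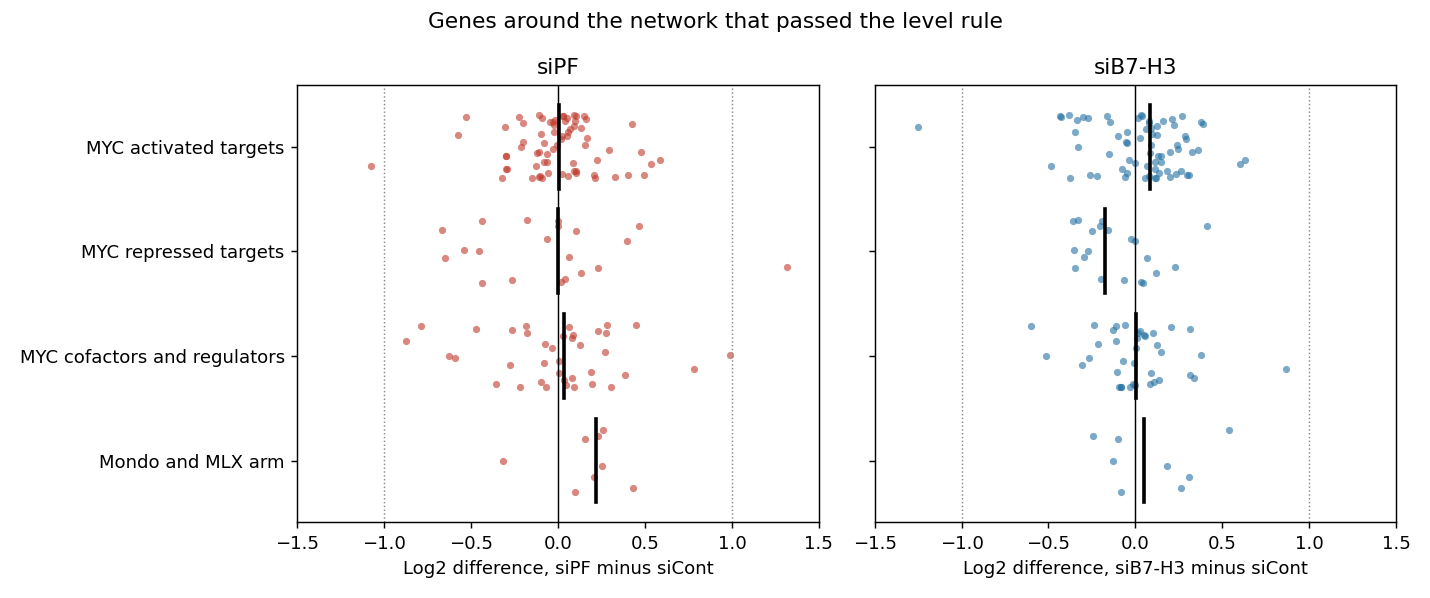
Log2 difference from siCont of the genes that passed the level rule, for siPF (left, red) and siB7-H3 (right, blue), 1 point per gene, in 4 lists around the network. Black bars are medians and dotted lines mark 2-fold. In siPF NIP7 lies past 2-fold lower and GADD45G past 2-fold higher, and in siB7-H3 SHMT1 lies past 2-fold lower.

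In the parallel arm of the network, MLX pairs with the glucose-sensing factors MLXIP (MondoA) and MLXIPL (ChREBP). It was measured by 11 genes with other E-box factors, of which 8 passed the level rule and none was past 2-fold under it. That is near the share over all genes, 1.38% higher and 1.12% lower in siPF and 0.792% and 0.83% in siB7-H3. Of the 8, 7 were above siCont in siPF and 4 in siB7-H3, against 52.5% and 52.8% of all genes under the rule. Their medians were 0.22 and 0.050, against 0.018 and 0.017. MLX had 3720 in siPF, 3279 in siB7-H3 and 3475 in siCont at its brightest probe set. MLXIP had 2377 in siPF, 1711 in siB7-H3 and 2026 in siCont at its brightest probe set and 1006 in siPF, 679 in siB7-H3 and 950 in siCont at the next. At both, siPF was highest and siB7-H3 lowest. MLXIPL was dim, with 20.2 in siPF, 4.82 in siB7-H3 and 17.2 in siCont. TXNIP, a target of MLXIP that restrains glucose uptake, had 4037 in siPF, 4331 in siB7-H3 and 3493 in siCont. It was thus above siCont on both knockdown arrays, whereas ARRDC3 and ARRDC4 of the same list were below siCont on both. ARRDC3, which passed the level rule, had log2 differences of -0.32 for siPF and -0.13 for siB7-H3. ARRDC4, under the level limit on all arrays, had -0.49 for siPF and -0.47 for siB7-H3.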

How the data were processed

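Rh-30 RNA was read on 3 Affymetrix U133 Plus 2.0 arrays, 1 per condition. The deposited values are linear intensities, 1 per probe set and array, which the authors made in Expression Console 1.4.1 per the submitters' processing notes. How probes were summarized is not given in the sources used here, and scaling to a common mean can shift every difference by the same amount. Detection calls were not used here.

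Names came from the platform annotation. The 62 array controls were dropped, and of the probe sets that carry several names those of MXD4 were kept. Log2 differences were computed with no pseudocount. Probe positions and sequences were not used. No test was run, since each condition had 1 array, and the number of arrays limits the precision. The members and the 8 gene lists, written from general knowledge, were chosen with earlier results of these data known. Named were all members with every probe set, CD276, FOXO1 and PAX3, and the relatives MYCNOS, MLX, MLXIP and MLXIPL. By rule, at most 6 list genes per direction, those with the largest differences under the level rule, could be named. Not all of these were named. SIN3A, SIN3B, TXNIP, NBAS, DDX1 and other genes outside that rule were chosen after their values were seen. Alternatives were other probe set rules, scalings, a pseudocount, a floor and other thresholds. Python 3.11.15, numpy 2.4.6, pandas 2.3.3 and matplotlib 3.10.9 ran the computations, which were tested on simulated data.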

Additional observations from a re-analysis of the deposited data

How the results depend on the processing

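With 1 array per condition no replicate could be left out, and dim probe sets limit what can be said of MYCN, MNT and MGA beyond their bright probe sets. Of 201 alternative values of member differences, 195 moved by less than the SD of genes of the same level. The scalings, the pseudocount and the floor kept the same probe sets, and their values moved little. The SD was also as large as many of the differences. With the median over probe sets, MXD4 in siPF fell from 0.50 to 0.054 yet moved by less than the SD. MNT in siPF went from 0.29 to -0.29 with that setting, past the SD, and MXD1 in siB7-H3 from 0.16 to 0.58. Without probe sets ending in _s_at or _x_at, MAX and MYCN were read from dim probe sets and also moved past the SD. In siB7-H3, MAX went from -0.0060 to 0.41 and MYCN from 0.38 to 0.78. For siPF minus siB7-H3, MAX went from 0.081 to -0.23 and MYCN from -0.11 to -0.41. MYCL stayed past 2-fold in siPF under 6 of 7 alternatives and past 2-fold between siPF and siB7-H3 under all 7. Those 6 read the same probe set, 214058_at, on the same arrays, so they are no second look at MYCL. The median over both probe sets gave 0.78 in siPF, short of 2-fold. The count of members at least 2-fold higher in siPF, 1, was 2 over all probe sets of the members under the level rule, where a probe set of MXD4 was added, and 0 with the median over a gene's probe sets. The members' median of 0.16 in siB7-H3 became 0.030 as a mean and 0.022 with the median over probe sets, and that of 0.12 for siPF minus siB7-H3 became 0.24 as a mean and -0.037 without probe sets ending in _s_at or _x_at, which left 7 of the 10 members. Without MXD4, a choice made after the data were seen, the counts of members past 2-fold could not change. The representative probe set of MXD4 was short of 2-fold in every comparison. The members' median in siPF became 0.10 without it, against 0.19.

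For the lists, the activated targets past 2-fold lower in siPF and in siB7-H3, 1 each, were 0 with the median over probe sets and 0 without _s_at and _x_at probe sets, which also gave 1 past 2-fold higher for siPF minus siB7-H3. The cofactors had 1 past 2-fold lower in siPF with the median over probe sets, and the MLX arm 1 lower for siPF minus siB7-H3 with the probe set of highest single value. The median of the repressed targets over all levels was -0.15 in siPF and -0.066 for siPF minus siB7-H3 with the median over probe sets, against -0.00047 and 0.10, and 0.034 in siB7-H3 without _s_at and _x_at probe sets, against -0.11. For the MLX arm it was -0.021 in siPF with the median over probe sets, against 0.23. In siB7-H3 it was 0.025 with the floor, 0.18 with the highest single value and 0.041 without _s_at and _x_at probe sets, against -0.084. For siPF minus siB7-H3 it was 0.029, 0.069 and 0.023 under the same settings, against 0.17. The cause of these changes was not tested.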

Other observations

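Genes beside the MYC family genes were also read, as RNA, and copy number was not measured. DDX1 and NBAS, neighbours of MYCN that are often amplified with it, had 6449 and 592 in siPF, 6789.8 and 657 in siB7-H3 and 5816 and 541 in siCont. Both were above siCont on both knockdown arrays, by log2 differences of 0.15 and 0.13 in siPF and 0.22 and 0.28 in siB7-H3. PVT1, a long noncoding RNA gene beside MYC, was dim, with 2.02 in siPF, 52.3 in siB7-H3 and 46.1 in siCont. TRIT1 and MFSD2A, neighbours of MYCL, had 2280.2 and 625 in siPF, 2028 and 606 in siB7-H3 and 2348 and 583 in siCont. Their log2 differences were -0.042 and 0.099 in siPF, where that of MYCL was 1.11, and -0.21 and 0.056 in siB7-H3.

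Of 20 reported PAX3-FOXO1 targets, a list that holds MYCN, 14 passed the level rule, and 3 of these were above and 11 below siCont in siPF, with a median of -0.45. In siB7-H3, 9 were above and 5 below, with a median of 0.030. Among all genes under the rule, the share above siCont was 52.5% for siPF and 52.8% for siB7-H3, and the medians were 0.018 and 0.017. Past 2-fold in siPF were CXCR4, a chemokine receptor, and ABAT, an enzyme of GABA breakdown, both lower, and MYOG, which was higher there and in siB7-H3. The shares of all genes under the rule at these thresholds were 1.38% on the higher side and 1.12% on the lower side for siPF, and 0.792% on the higher side for siB7-H3. MYCN was among the 3 above siCont in siPF, with MYOG and PIPOX, an oxidase of amino acid breakdown. MET, a growth factor receptor, had 4605 in siPF, 8852 in siB7-H3 and 7849.9 in siCont, and ALK, a receptor kinase, 207 in siPF, 374 in siB7-H3 and 334 in siCont.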
